A study of Mus musculus with 22 samples.

Results

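Slc37a2, Emp1 and Hsd3b2 are the 3 genes, of 24421 counted, that are described here across 6 cell types sorted from the mouse colon crypt. They were chosen by their fall from Stem to SecPDG, which is among the largest in these libraries, so their levels in those 2 cell types are given as a description and carry no test. RNA was sequenced from 22 libraries of epithelial cells of wild-type, untreated C57BL/6N male mice of 5 to 7 weeks, all sorted as Epcam+ and free of the endothelial marker Cd31 and the immune marker Cd45. The gates were Cd44 highest, Cd24 low and cKit negative for Stem (3 libraries), Cd44 medium to high with Cd24 low and cKit negative for the absorptive progenitors AbsPro (3), and Cd44 high with medium Cd24 and cKit for SecPDG (4), a gate named for secretory progenitors, deep crypt secretory cells and goblet cells, the last of which the study takes as a possible minor part. Tuft cells (5 libraries) were cKit positive and Cd24 high, enterocytes (Ent, 5) Cd44 low or negative and Cd24 negative, and enteroendocrine cells (EEC, 2) Cd44 low or negative and Cd24 positive. Each Stem and AbsPro library came from 1 mouse, whereas the other libraries pooled cells of several mice, so that a gate and its pooling cannot be told apart.

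Stem cells at the crypt base give rise to an absorptive lineage, through AbsPro to Ent, and to a secretory lineage of goblet, deep crypt secretory, tuft and enteroendocrine cells. The 3 genes were low in SecPDG and Tuft, while the 2 EEC libraries lay far apart, so they are called here by their names and not as genes lost in the secretory lineage. Counts on genes ranged from 15314543 to 22462518 in Stem, AbsPro and SecPDG and from 4122122 to 20892532 in the other 12 libraries. The Tuft and EEC gates were matched by their markers: the summed level of 8 tuft genes was 24108 to 63894 normalized counts in Tuft and at most 8629 elsewhere, and that of 8 enteroendocrine genes was 563077 to 1658580 in EEC and at most 29095 elsewhere. Enterocyte genes did not single out Ent, with mean sums of 73935 in AbsPro, 57328 in Ent and 73624 in EEC. Immune genes had mean sums of 2222 in Tuft, 1097 in Ent and 1659 in EEC, against 513 to 734 in Stem, AbsPro and SecPDG. Stromal genes had 454, 1212 and 2685, against 147 to 706. Endothelial genes had 556, 865 and 1503, against 87.7 to 199. The source of these was not tested. Goblet and deep crypt secretory genes were not limited to their gate: 8 of them summed to 872796 to 3367850 in SecPDG, but also to 704769 to 1246940 in Tuft and 250178 to 664407 in Ent, and their part in the low levels of Tuft was not tested. The 2 EEC libraries stood apart from each other: EEC 1 was the shallowest library, and its summed level of 8 enterocyte genes was 20213, against 127035 in EEC 2, the highest of all 22 libraries. The calls of the 3 genes that rest on EEC are therefore given with and without each of them, and for other genes the calls that such a fit changes are named where they bear on a statement. The fit without both EEC libraries, and the use of these fits for other genes, were added after the data had been seen.

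Slc37a2 encodes a sugar-phosphate exchanger of the endoplasmic reticulum, of the family whose best known member, Slc37a4, brings glucose-6-phosphate to the glucose-6-phosphatases. Emp1, epithelial membrane protein 1, is a small membrane protein with 4 membrane passes and belongs to the family of the myelin protein Pmp22. Hsd3b2 encodes a 3-beta-hydroxysteroid dehydrogenase, one of the enzymes that turn pregnenolone into progesterone and act on related steroids. None of the 3 is a classical marker of a colon cell type, whereas the carbonic anhydrases Car1 and Car4, the chloride-bicarbonate exchanger Slc26a3 and the water channel Aqp8 are well known genes of colon enterocytes.

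In the GRCm38 annotation of GENCODE M21, Slc37a2 (ENSMUSG00000032122) lies on the minus strand at chr9:37227585-37255738, Emp1 (ENSMUSG00000030208) on the plus strand at chr6:135362545-135383173 and Hsd3b2 (ENSMUSG00000063730) on the minus strand at chr3:98709255-98724543. Hsd3b2 lies in a cluster with Hsd3b1, Hsd3b3, Hsd3b4, Hsd3b5 and Hsd3b6 on the same strand of chromosome 3. The region from 250 bases before to 50 bases after each RefSeq start (GRCm38.p6) was searched on both strands for the letters of 5 motifs. These were TGANTCA for AP-1, TTTATNG for CDX2, CAAAGTC for HNF4, CAGCTG for an E-box and TATAAA for a TATA box. The matches are shown as 30 bases around each motif, 5' to 3' on the strand of the gene, with the motif in capitals.
Emp1, chr6:135362775-135362804: gtctgtgtgtcTGAGTCAgagggagctaca
Emp1, chr6:135362895-135362924: taaatccagacTGATTCAtagaaactcctt
Slc37a2, chr9:37255827-37255856: cccgcagatcaTGAGTCAgcgcggtggtcc
Emp1, second start, chr6:135367371-135367400: gctaacttaatCCATAAAagttagtgtagt
The letters TGANTCA, which allow any base in the middle, thus stood 145 and 25 bases before the first RefSeq start of Emp1. They also stood 107 bases before that of Slc37a2. The match at 25 bases was TGATTCA, and those at 145 and 107 bases were TGAGTCA. In GENCODE M21 a longer transcript of Emp1 begins further upstream, so that both matches lie inside it, one in intron 1 and the other in exon 2. The letters of the CDX2 motif, read on the other strand, stood 111 bases before the second start of Emp1. Of 32851 promoters in the table, 7.81% held TGANTCA, 10.9% held TTTATNG, 4.44% held CAAAGTC, 16.3% held CAGCTG and 13.6% held TATAAA. These last 3 motifs were in none of the windows of the members, and the window of Hsd3b2 held none of the 5. A match of letters is a description of the sequence and was not tested for binding.

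Levels are given as normalized counts, which are counts divided by the library's TMM-scaled total and multiplied by the mean of these totals. Slc37a2 was abundant in the absorptive cell types and low in SecPDG and Tuft. It reached 8436, 12033 and 12895 in the AbsPro libraries (11121 ± 2365, SD, n = 3). In the Ent libraries it measured 6774, 5392, 1937, 6895 and 3987 (4997 ± 2080, n = 5). Every AbsPro library was thus above every Ent library. Stem held 1425, 2548 and 2818 (2264 ± 739, n = 3), of which the upper 2 lay above the lowest Ent library. SecPDG held 15.1, 196.5, 141.7 and 233.6 (147 ± 95.6, n = 4). Tuft held 152.7, 209.8, 120.5, 135.5 and 96.2 (143 ± 42.7, n = 5), so that SecPDG and Tuft overlapped and neither overlapped any library of Stem, AbsPro or Ent. The EEC libraries measured 522 and 11413, the first below all Stem libraries and the second within the range of AbsPro.

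Emp1 showed the steepest difference between Stem and the absorptive cell types. It measured 378, 675 and 528 in Stem (527 ± 148, n = 3). In AbsPro it measured 3144, 2939 and 6040 (4041 ± 1735, n = 3). In Ent it measured 3949, 4508, 2798, 4688 and 2929 (3774 ± 876, n = 5). AbsPro and Ent overlapped, and every library of either lay above every Stem library. SecPDG held 31.1, 49.1, 19.7 and 40.4 (35.1 ± 12.6, n = 4). Tuft held 132.6, 71.1, 62.6, 46.5 and 54.7 (73.5 ± 34.2, n = 5), of which the lowest lay within the range of SecPDG. The EEC libraries measured 578 and 7903, the first within the range of Stem and the second above every library of AbsPro and Ent.

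Hsd3b2 had the most even means between Stem and the absorptive cell types. It measured 272, 347 and 316 in Stem (312 ± 37.9, n = 3). In AbsPro it measured 530, 564 and 722 (605 ± 103, n = 3). In Ent it measured 473, 392, 311, 307 and 307 (358 ± 73.8, n = 5). AbsPro was above all libraries of Stem and Ent, which overlapped. SecPDG held 11.0, 23.3, 16.1 and 40.4 (22.7 ± 12.8, n = 4). Tuft held 73.4, 97.4, 76.8, 48.6 and 57.4 (70.7 ± 18.9, n = 5), every library above all of SecPDG and below all of Stem, AbsPro and Ent. The EEC libraries measured 39.1 and 413, the first within the range of SecPDG and the second within that of Ent. In bulk libraries, fewer expressing cells and less RNA per cell cannot be told apart.

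**Figure D1:**
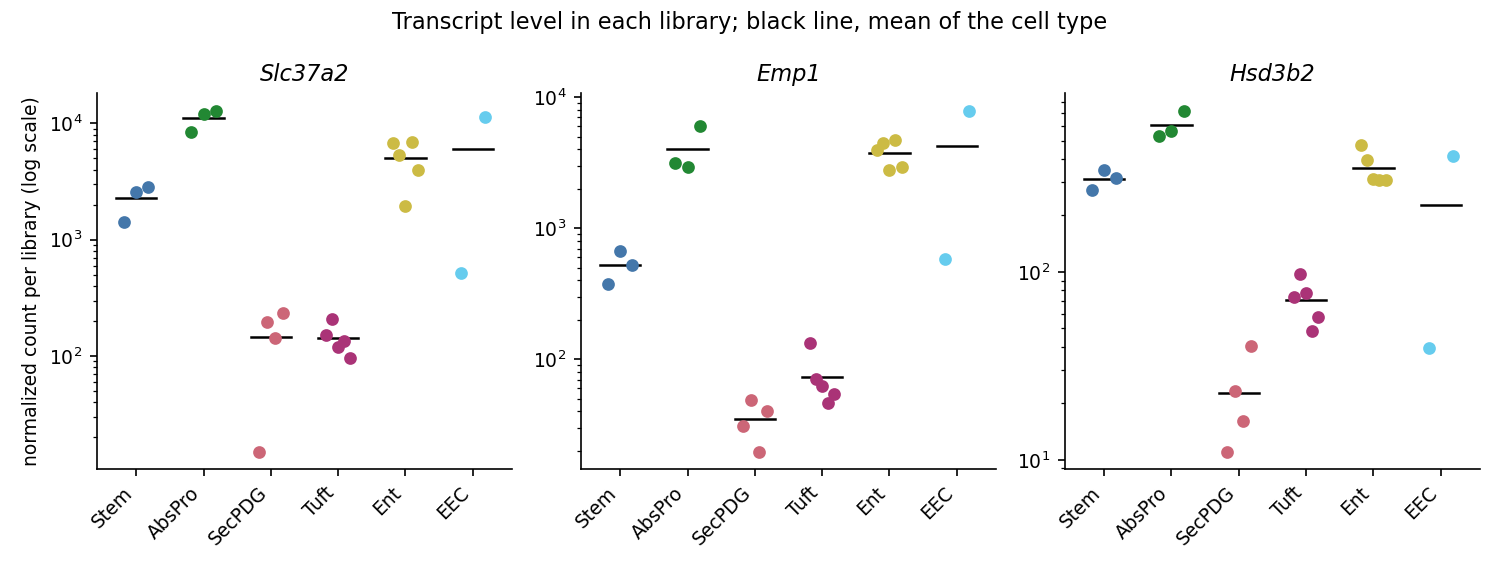
Normalized counts (log axis) of Slc37a2, Emp1 and Hsd3b2 in each of the 22 libraries by cell type, with the mean of each cell type as a black line. All SecPDG and Tuft libraries lie below all Stem, AbsPro and Ent libraries for each gene, and the 2 EEC libraries lie far apart (522 and 11413 for Slc37a2). The place of SecPDG below Stem follows from how the genes were chosen.

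By mean level Slc37a2 was ordered AbsPro, EEC, Ent, Stem, SecPDG and Tuft, Emp1 was ordered EEC, AbsPro, Ent, Stem, Tuft and SecPDG, and Hsd3b2 was ordered AbsPro, Ent, Stem, EEC, Tuft and SecPDG. For Slc37a2 the only neighbours without overlapping libraries were Stem and SecPDG, a gap that the choice of the genes required. For Emp1 they were Ent with Stem and Stem with Tuft. For Hsd3b2 they were AbsPro with Ent and Tuft with SecPDG.

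The values that chose the members were the log2 differences between Stem and SecPDG in a fit of all 22 libraries, taken among genes with an average of 50 or more normalized counts over these libraries that were called and were higher in every Stem library than in every SecPDG library. These were 3.95 for Slc37a2, 3.92 for Emp1 and 3.78 for Hsd3b2, with 15.4-, 15.0- and 13.7-fold ratios of the means, and the genes held places 3, 4 and 5 of 141 in this ranking. The 2 genes above them, Aqp8 (5.40) and Ambp, which encodes a serum protein precursor (4.18), had low levels, with Stem means of 72.7 and 41.2 normalized counts. Just outside stood Slc51a (3.61), a subunit of the basolateral bile acid transporter, and Slc26a3 (3.56). The places of the 3 genes were the same when libraries were scaled by DESeq2 size factors or by their totals. These values chose the genes and support nothing further.

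The levels of the 15 libraries of AbsPro, Ent, Tuft and EEC did not enter the difference between Stem and SecPDG, although they shared the spread and the minimum level of the fit that ranked the genes. In these 15 libraries the genes were tested by edgeR's quasi-likelihood test over 22275 genes. Calls needed an adjusted p (Benjamini-Hochberg) below 0.01 together with an average level of 50 or more in the fitted libraries. All 3 genes were called higher in the mean of AbsPro and Ent than in the mean of Tuft and EEC, as 2.36% of all genes were, while 4.4% were called lower. The log2 difference was 3.01 (SE 0.51, adjusted p = 0.000241) for Slc37a2, 2.81 (SE 0.45, adjusted p = 0.00014) for Emp1 and 1.88 (SE 0.38, adjusted p = 0.0015) for Hsd3b2. All 8 AbsPro and Ent libraries were above the mean of the 7 Tuft and EEC libraries for each gene, and 6 of these 7, all but EEC 2, were below the lowest AbsPro or Ent library. Without EEC 2 the differences were 4.77, 4.24 and 3.14, and with both EEC libraries left out, so that Tuft stood alone, they were 5.71, 5.73 and 2.72.

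The largest differences were those of Tuft. Against AbsPro, Tuft was lower by 77.8-fold for Slc37a2 (log2 difference -6.28, SE 0.64, adjusted p = 3.79e-07), by 55.0-fold for Emp1 (-5.78, SE 0.57, adjusted p = 2.5e-07) and by 8.56-fold for Hsd3b2 (-3.10, SE 0.46, adjusted p = 7.74e-05). Of all genes, 1.59% were called lower and 3.87% higher in this comparison. Against Ent, Tuft was lower for Slc37a2 (-5.13, SE 0.59, adjusted p = 1.28e-06), by 51.4-fold for Emp1 (log2 difference -5.68, SE 0.55, adjusted p = 1.03e-07) and by 5.06-fold for Hsd3b2 (-2.34, SE 0.42, adjusted p = 0.00047), where 1.69% of genes were called lower and 3.08% higher, a balance that turned with library totals. All 5 Tuft libraries were below every AbsPro and every Ent library for each gene. Both comparisons share the Tuft libraries and are not independent of each other.

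No member was called between Ent and AbsPro, where 5.81% of genes were called higher and 2.57% lower in Ent, a balance that turned to more lower genes with all 22 libraries in the fit. Slc37a2 had a log2 difference of -1.15 (SE 0.56, adjusted p = 0.0941). This difference was called when EEC 1 (adjusted p = 0.00875), EEC 2 (adjusted p = 0.009) or both (adjusted p = 0.00838) were left out of the fit, with the same value of -1.15. Hsd3b2 had a difference of -0.76 (SE 0.45, adjusted p = 0.169), again with all Ent libraries below all AbsPro libraries, and Emp1 one of -0.098 (SE 0.51, adjusted p = 0.886), which turned to 0.47 with DESeq2 size factors and 0.41 with library totals.

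**Figure D2:**
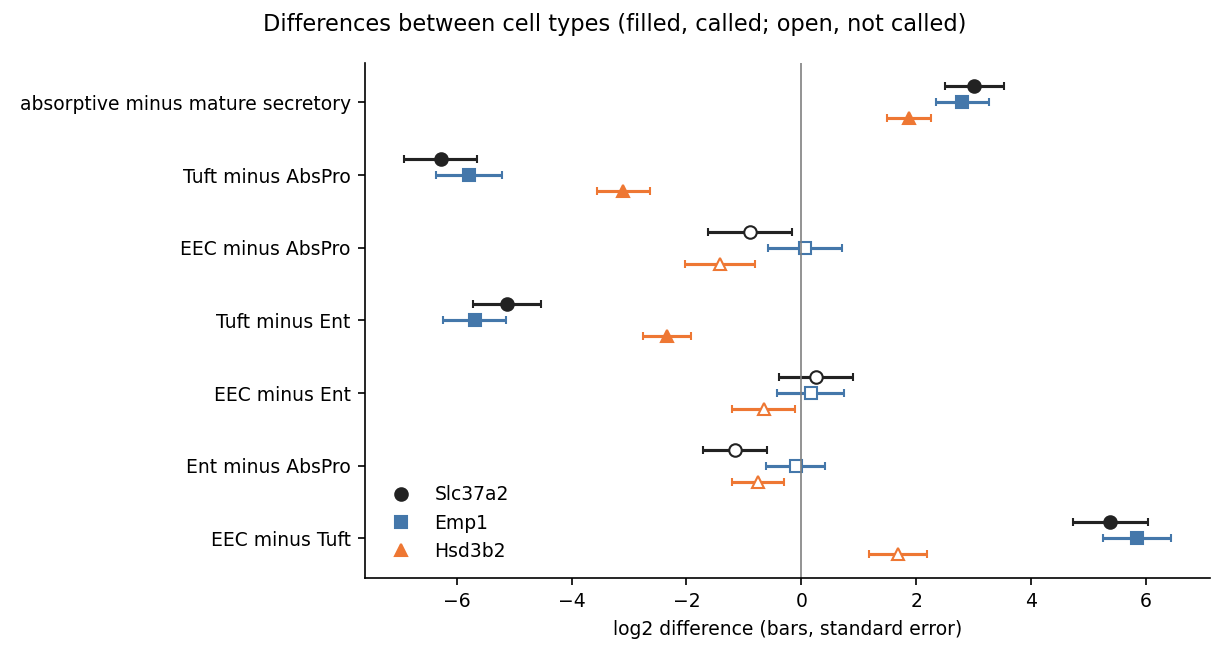
Log2 differences of the 3 genes between cell types (bars, standard error) from the edgeR fit of 15 libraries. Filled symbols mark differences that were called, which are all those of Tuft against AbsPro and Ent, those of the absorptive against the mature secretory cell types, and those of EEC against Tuft for Slc37a2 (5.38) and Emp1 (5.85).

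Slc37a2 and Emp1 were called higher in EEC than in Tuft, by amounts that moved with the EEC library, whereas Hsd3b2 was not called. Slc37a2 was higher in EEC than in Tuft by 41.8-fold (log2 difference 5.38, SE 0.65, adjusted p = 5.33e-06) and Emp1 by 57.7-fold (5.85, SE 0.59, adjusted p = 5.97e-07), both EEC libraries being above all 5 Tuft libraries. Of all genes, 2.01% were called higher and 2.34% lower in this comparison, which turned with DESeq2 size factors. Hsd3b2, with a difference of 1.68 (SE 0.51, adjusted p = 0.0351), was not called, and EEC 1 was below every Tuft library. Without EEC 2, the differences from Tuft were 1.87 for Slc37a2 (adjusted p = 0.00664), 2.98 for Emp1 and -0.85 for Hsd3b2. Without EEC 1 they were 6.32, 6.75 and 2.55, and Hsd3b2 was then called (adjusted p = 4.55e-05).

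Against AbsPro, EEC gave -0.90 (SE 0.73, adjusted p = 0.322) for Slc37a2, 0.070 (SE 0.64, adjusted p = 0.956) for Emp1 and -1.41 (SE 0.60, adjusted p = 0.0622) for Hsd3b2, where 8.54% of genes were called higher and 5.07% lower, which turned in the same way with all 22 libraries and fell to 24 genes in a fit of EEC and AbsPro alone. Against Ent, it gave 0.26 (SE 0.65, adjusted p = 0.926) for Slc37a2, 0.17 (SE 0.58, adjusted p = 0.949) for Emp1 and -0.66 (SE 0.55, adjusted p = 0.659) for Hsd3b2, with 1.54% of genes called higher and 0.772% lower, which turned with library totals. With library totals the first 2 of these turned to -0.19 and -0.25. These 6 differences do not show that EEC and the absorptive cell types are alike, since EEC 1 and EEC 2 lay far apart for each gene. Without EEC 2, all 3 genes were called lower in EEC than in AbsPro, by -4.41, -2.80 and -3.95, and lower than in Ent, by -3.26, -2.71 and -3.19. Without EEC 1, the differences from AbsPro were 0.037, 0.97 and -0.55 and those from Ent were 1.19, 1.07 and 0.21, and none was called.

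In the EEC libraries the summed level of 8 enterocyte genes moved with the levels of the 3 members. Not each of the 8 did so: Slc51a measured 376 in EEC 1 and 138 in EEC 2. From EEC 1 to EEC 2, Slc37a2 was 21.9-fold, Emp1 13.7-fold and Hsd3b2 10.6-fold higher, the last against the 23 counts of EEC 1, which were near the background given further on, so that its fold is not precise. The 8 enterocyte genes together were 6.29-fold higher and Car4, the membrane-bound carbonic anhydrase of enterocytes, 14.2-fold, while the 8 enteroendocrine genes together were 2.95-fold higher. All 8 enterocyte genes were detected in at least 1 library of every cell type, with sums of 61108 to 91461 in AbsPro, 50214 to 64140 in Ent, 11710 to 23219 in Stem, 1762 to 2878 in SecPDG and 863 to 2376 in Tuft. Of those 8, Aqp8, Slc51a, Slc26a3 and Car1 themselves stand near the top of the Stem to SecPDG ranking. The part of enterocytes in the EEC libraries was not tested.

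Set against that sum, the 3 genes differed from each other. Slc37a2 amounted to 138 to 174 normalized counts per 1000 of the enterocyte genes in AbsPro, 38.6 to 136 in Ent and 110 to 144 in Stem. In Tuft, where both levels were low, it amounted to 40.5 to 211, and in SecPDG to 7.69 to 105. Emp1 amounted to 42.5 to 66 in AbsPro, 45.7 to 92.7 in Ent, 26.9 to 32.3 in Stem and 11.2 to 26.2 in SecPDG. In SecPDG this ratio was thus below that of every AbsPro, Ent and Stem library, although its highest value there, 26.2, was close to the lowest of Stem, 26.9. Since the levels of Stem and SecPDG chose Emp1, nothing is read from this. Hsd3b2 amounted to 7.90 to 8.68 in AbsPro, 4.79 to 7.77 in Ent and 15.0 to 23.2 in Stem, so that the 3 ranges did not overlap. In Tuft it amounted to 24.2 to 97.9, above its range in every other cell type. In EEC 1 and EEC 2, Slc37a2 amounted to 25.8 and 89.8, Emp1 to 28.6 and 62.2 and Hsd3b2 to 1.94 and 3.25.

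**Figure D3:**
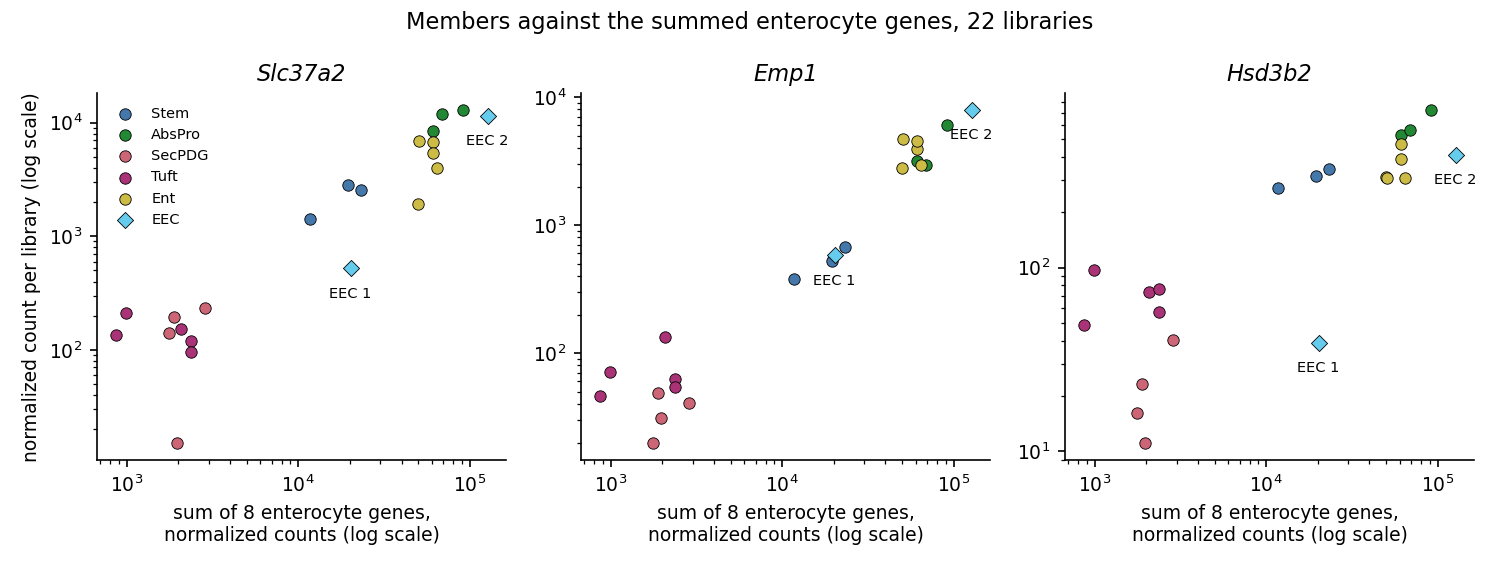
Normalized count of each member against the summed level of 8 enterocyte genes (Car1, Car4, Slc26a3, Aqp8, Krt20, Alpi, Slc51a and Slc51b) in 22 libraries, both on log axes. SecPDG and Tuft lie at the lower left and AbsPro, Ent and EEC 2 at the upper right, while EEC 1 lies beside Stem for Emp1 and well below Stem for Slc37a2 and Hsd3b2.

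The low counts were set against a background estimate. The share of uniquely mapped reads outside annotated genes was 43.7% on average in SecPDG and 47.1% to 47.7% in Stem and AbsPro, but 60.9% in Tuft, 76.3% in Ent and 77.1% in EEC. For the estimate, the counts per kilobase over 1513 genes of 6 families, such as olfactory and vomeronasal receptors, were taken as a background. That colon cells do not use these families was assumed and not tested. That background amounted to 10.2% of the Slc37a2 counts in Tuft, 17.6% of those of Emp1 and 11.4% of those of Hsd3b2. In SecPDG it amounted to 1.41%, 5.28% and 5.08%, and in AbsPro to at most 0.218% in any library. In EEC 1 it amounted to 11.8% for Slc37a2 and 9.50% for Emp1, but to 87.5% for Hsd3b2, which had 23 counts there, so that Hsd3b2 was barely detectable above background in that library. For Emp1 the estimate depends on length: 480 of its 5935 exon bases are coding in the longest transcript, and with coding length it was 4.83% in Tuft.

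The families of the 3 genes were examined next. Levels of different genes are compared per kilobase of exon. Slc37a2 was the most abundant Slc37 gene in AbsPro, with a mean of 1674 normalized counts per kilobase, and in Ent (752), Stem (341) and EEC (898). In SecPDG and Tuft it was the least abundant, with 22.1 and 21.5. There Slc37a3, a lysosomal member of the family, led with 452 in SecPDG and 296 in Tuft, followed by Slc37a1, a glucose-6-phosphate exchanger, with 262 and 196. Slc37a3 was called higher in Tuft than in Ent (log2 difference 1.42, SE 0.28, adjusted p = 0.00124) and lower in EEC than in Tuft (-1.86, SE 0.41, adjusted p = 0.00397), the latter not without EEC 1 (adjusted p = 0.0182). Between the absorptive and the mature secretory cell types its difference was -0.20 (SE 0.24, adjusted p = 0.583), which was called lower without both EEC libraries (-1.13, adjusted p = 0.000601). Slc37a1 and Slc37a4 were called in none of the 7 comparisons, although without EEC 2, with EEC 1 standing alone, Slc37a1 was called lower in EEC than in AbsPro and Tuft and Slc37a4 lower in EEC than in AbsPro, Ent and Tuft, and Slc37a4 had means of 102 to 185 per kilobase in all 6 cell types.

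In the family of Emp1, Pmp22 was the gene called in the most comparisons besides Emp1. Its mean was 1139 normalized counts per kilobase in Ent and 395 in AbsPro, above the 636 of Emp1 in Ent and below the 681 of Emp1 in AbsPro. Pmp22 was called lower in Tuft than in AbsPro (log2 difference -2.67, SE 0.49, adjusted p = 0.000653) and than in Ent (-4.20, SE 0.48, adjusted p = 1.21e-06), both also without either or both EEC libraries. It was called higher in EEC than in Tuft (3.18, SE 0.53, adjusted p = 0.000248), but not without EEC 2 (0.083, adjusted p = 0.897). Unlike Emp1, it had a low mean of 38.1 per kilobase in Stem and a higher one of 172 in SecPDG. Emp2 had its highest mean in Stem, with 144 per kilobase, had means of 63.4 to 107 in AbsPro, SecPDG, Tuft and Ent, and was called lower in EEC than in AbsPro (-2.35, SE 0.52, adjusted p = 0.00186), but not without EEC 1 (-1.96, adjusted p = 0.0205). Emp3 had means of at most 30.7 normalized counts outside EEC and was called in no comparison.

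Hsd3b2 was not the leading gene of its own family. Hsd3b3, its neighbour in the cluster, had 477 normalized counts per kilobase in AbsPro against 164 for Hsd3b2, 216 against 96.9 in Ent, 213 against 84.3 in Stem, 32.0 against 6.14 in SecPDG and 24 against 19.1 in Tuft. Hsd3b3 was called higher in AbsPro and Ent than in Tuft and EEC (log2 difference 2.26, SE 0.49, adjusted p = 0.00254) and lower in Tuft than in AbsPro (-4.31, SE 0.60, adjusted p = 2.93e-05), both also without either or both EEC libraries. In contrast to Hsd3b2, it was called higher in EEC than in Tuft (2.96, SE 0.62, adjusted p = 0.00257), a difference that was -0.088 without EEC 2 (adjusted p = 0.926), and its mean was lower in Tuft than in SecPDG. Of the 3695 windows of 100 bases in the exons of Hsd3b2, 306 (8.28%) occur in the exons of another gene, 205 of them in Hsd3b3, so a small part of the counts could not be assigned to 1 gene. The corresponding shares were 2.12% for Slc37a2 and 0% for Emp1. Hsd3b1, Hsd3b4, Hsd3b5 and Hsd3b6, the other genes of the cluster, had means of at most 65.5 normalized counts in every cell type, and none met the criteria of a call in any comparison. Hsd3b7, which lies on chromosome 7 and acts in bile acid synthesis, was highest in EEC (213 per kilobase) and called higher in EEC than in Ent (1.96, SE 0.43, adjusted p = 0.00665), but not without EEC 2 (1.78, adjusted p = 0.0226).

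**Figure D4:**
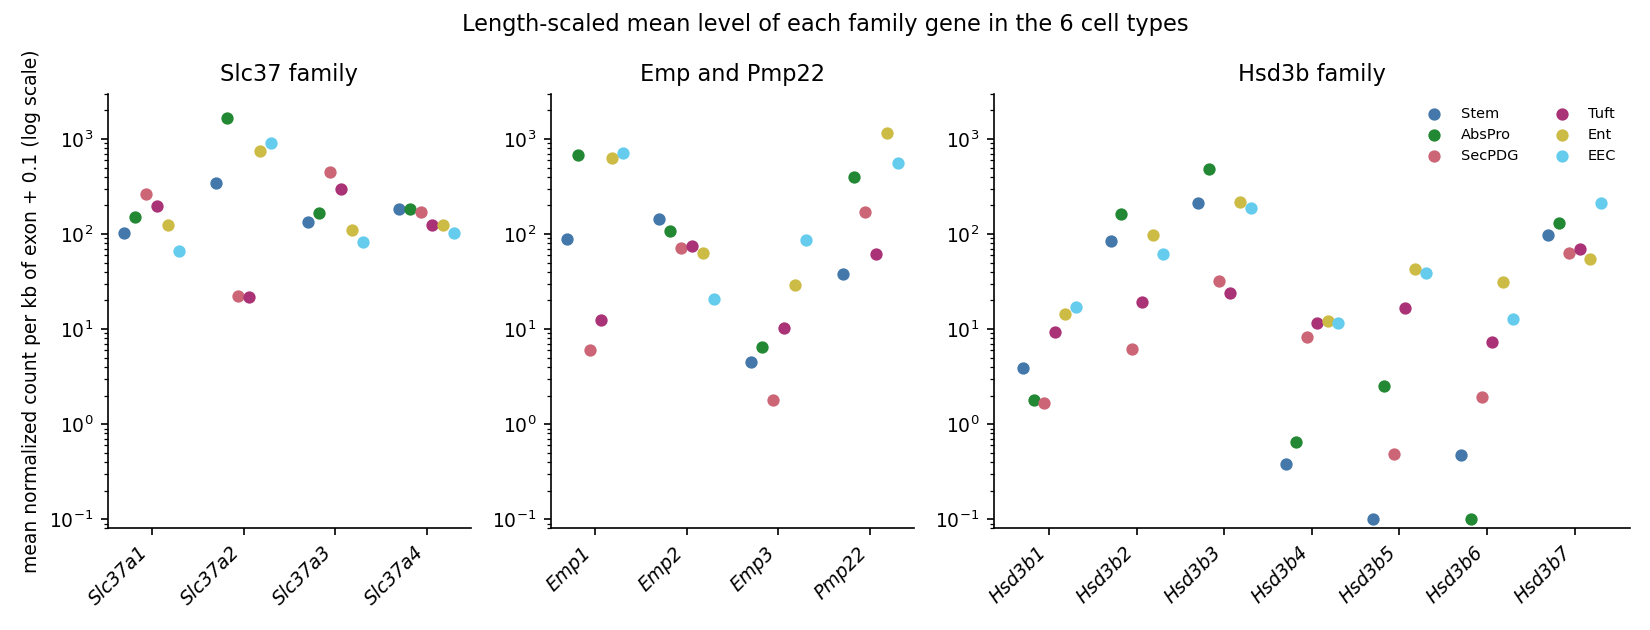
Mean normalized count per kilobase of exon (plus 0.1, log axis) of each gene of the 3 families in the 6 cell types. Slc37a2 spans 21.5 to 1674 while Slc37a4 spans 102 to 185, and Hsd3b3 lies above Hsd3b2 in all 6 cell types.

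The wider pathways were described by 4 lists of genes that leave out the members. Over all 22275 genes, the median log2 difference between the absorptive and the mature secretory cell types was -0.28. Of 15 genes of the Slc37 and glucose-6-phosphate system, none was called in this comparison, against 2.36% higher and 4.4% lower of all genes, and the median was 0.18. Without EEC 2 the called genes were 5, all higher (G6pc3, G6pdx, Pgm1, Pgm2 and Slc37a4), where 9.80% of all genes were called higher, and without both EEC libraries they were H6pd and Slc37a3, both lower, where 4.92% were. Within it, G6pc had a mean of at most 87.5 normalized counts in any cell type, and G6pc3, the widely expressed glucose-6-phosphatase, had a difference of 0.18 (SE 0.32, adjusted p = 0.735). Of 16 genes related to Emp1 by their tetraspan membrane structure, 3 were called higher and none lower, again beside 2.36% and 4.4% of all genes, with a median of 0.47. These were Pmp22 (1.84, SE 0.40, adjusted p = 0.00279), Mall (2.51, SE 0.52, adjusted p = 0.00174) and Mal2 (1.53, SE 0.36, adjusted p = 0.00509), the last 2 being proteins of membrane traffic. Mal2 was not called without EEC 1 (1.11). Without both EEC libraries 4 of the 16 genes were called higher and none lower, beside 2.93% and 4.92% of all genes. Mall was also called lower in Tuft than in AbsPro and than in Ent, with log2 differences of -4.04 and -4.

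Of 7 genes of the 3-beta-hydroxysteroid dehydrogenases, 1, Hsd3b3, was called higher and none lower, beside the same 2.36% and 4.4%, with a median of -1.28 that rested on genes of low counts. Of 31 genes of steroid synthesis and inactivation, 2 were called higher and none lower, against 2.36% and 4.4% of all genes, with a median of 0.30. Without both EEC libraries 6 of the 31 genes were called higher and none lower, beside 2.93% and 4.92% of all genes. With so few genes, nothing particular to any of the 4 lists is read from these counts. In the fit with both EEC libraries the 2 called genes were Hsd17b2 (2.33, SE 0.41, adjusted p = 0.00038) and Nr5a2 (1.83, SE 0.31, adjusted p = 0.000257). The first inactivates estradiol and testosterone, and the second is a nuclear receptor that drives steroid synthesis in the gut. Hsd17b2 was lower in Tuft than in AbsPro by -3.51 and than in Ent by -3.48, as Hsd3b2 was, whereas Nr5a2 was lower than in AbsPro by -1.55 in Tuft and by -2.70 in EEC. Cyp11a1, which makes pregnenolone, the substrate of the Hsd3b enzymes, had means of 0 in Stem, 1.19 in AbsPro, 2.11 in SecPDG, 39.4 in Tuft, 48.3 in Ent and 52.7 in EEC. Cyp11b1, which makes corticosterone, had means of 0 in AbsPro, 82.3 in Ent and 151 in EEC, with 303 in EEC 1 and 0 in EEC 2. It was called higher than in AbsPro in Ent (log2 difference 9.26, SE 1.97, adjusted p = 0.00282) and in EEC (10.13, SE 2.08, adjusted p = 0.00126). Without both EEC libraries the difference of Ent was 9.30 and did not meet the criteria of a call. The background was high in the same cell types, and in the Ent libraries it amounted to 38.2% to 72.2% of the Cyp11a1 counts and to 15.7% to 22.9% of those of Cyp11b1. Hsd11b2, which inactivates corticosterone, had its highest mean in SecPDG, at 20434, where Hsd3b2 was lowest, and was lower in EEC than in AbsPro by -3.14 (SE 0.69, adjusted p = 0.0018), but not called so without EEC 1 (-2.33, adjusted p = 0.0102).

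The genes whose pattern was most like that of each member were taken as the 5 with the highest Pearson correlation of log2 (normalized count + 1) over 22 libraries, among 13105 genes with a mean of at least 50. Libraries of the same cell type share their gate, so these correlations are descriptions. For Slc37a2 they were Gsdmc2, a gasdermin (r = 0.958), Cyp2c65 (0.953), Slc26a3 (0.949), Paqr5 (0.947) and 1810065E05Rik (0.946). For Emp1 they were Slc26a3 (0.980), the sodium-proton exchanger Slc9a2 (0.966), Cyp2c55 (0.963), the carboxylesterase Ces2e (0.952) and 1810065E05Rik (0.948). Cyp2c65 and Cyp2c55 are cytochrome P450 enzymes. For Hsd3b2 the first was Slc37a2 itself (0.930), followed by the protein kinase Prkg2 (0.930), Cyp2d26 (0.920), Gsdmc2 (0.918) and the chloride channel Clcn2 (0.918).

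The members were also alike among themselves: Slc37a2 and Emp1 correlated at 0.941, Slc37a2 and Hsd3b2 at 0.930 and Emp1 and Hsd3b2 at 0.894, of which the choice by 1 contrast fixes a part. The choice of measure mattered for the names: with Spearman's rho 1 of the 5 genes was kept for each member, and with the means of 6 cell types 1 for Slc37a2, 2 for Emp1 and 1 for Hsd3b2.

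**Figure D5:**
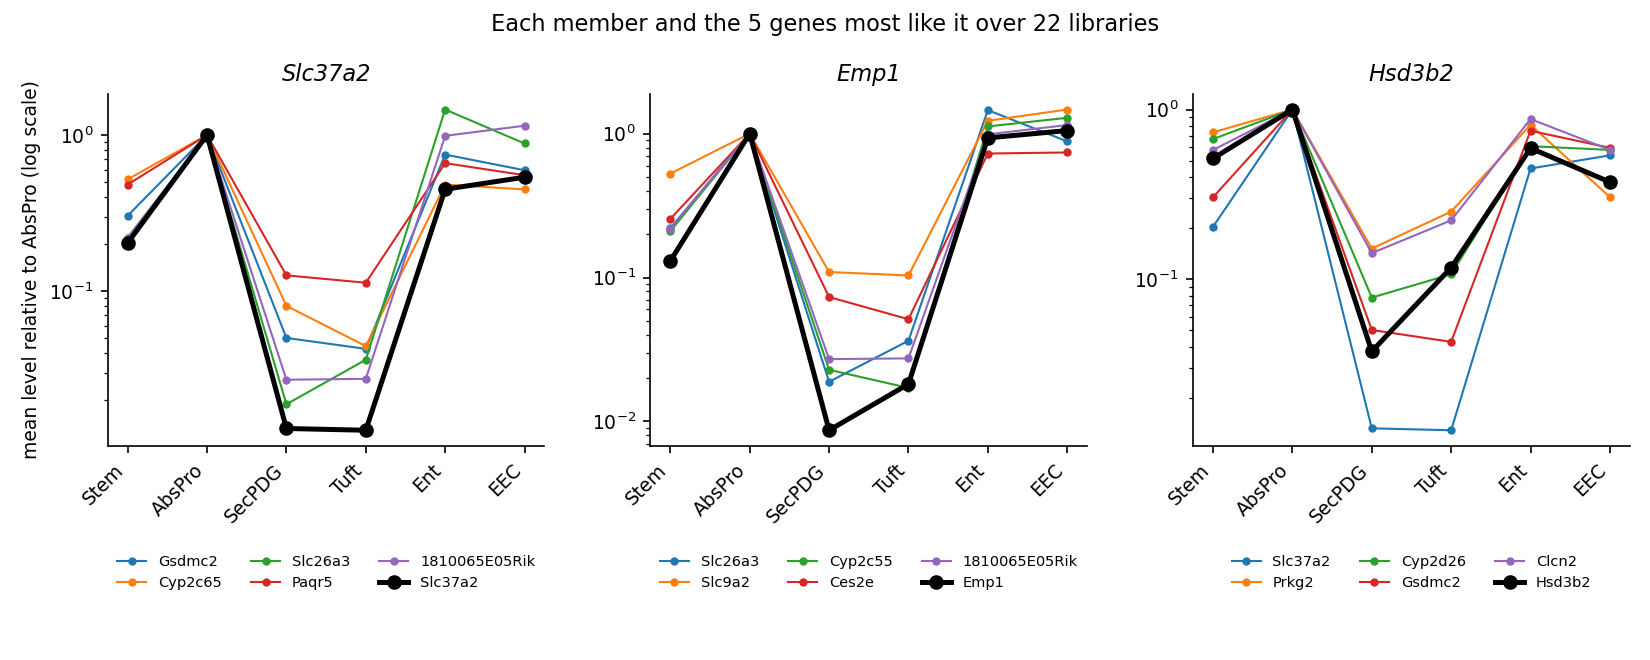
Mean normalized count in each cell type relative to AbsPro (log axis) for each member (black) and the 5 genes most like it. The low place of the members in SecPDG follows from how they were chosen, and the likeness of the 5 genes from the choice by correlation, so the lines show levels and no test.

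Splicing and polyadenylation were not used to choose the genes. Where the tables hold a member, the libraries are listed by cell type and without names. For Slc37a2, 2 exons were listed as skipped exon events in Stem with AbsPro and in Stem with Ent: exon 2 (82 bases, chr9:37241879-37241960) and exon 7 (167 bases, chr9:37238216-37238382), both coding. Exon 7 was included at 100% in all 3 Stem libraries, at 100%, 98.2% and 90.9% in AbsPro and at 100%, 94.2%, 91.5%, 89.9% and 100% in Ent. The skipping counts behind these values were 0, 2 and 12 in AbsPro and 0, 2, 1, 7 and 0 in Ent, against 22, 106 and 65 inclusion counts and no skipping in Stem. Exon 2 was included at 95.9% or more in every library. In Stem with AbsPro its only skipping count was 1 in an AbsPro library, so the sign of that difference, given next, is not read. By edgeR's test of inclusion against skipping counts, the log2 difference for exon 7 was -1.96 (SE 2.30, adjusted p = 0.829) in AbsPro and -2.37 (SE 1.64, adjusted p = 0.63) in Ent, and for exon 2 0.46 (SE 1.16, adjusted p = 0.865) and -0.96 (SE 1.04, adjusted p = 0.63). No event was called in either table, 0% of 4293 and 0% of 4756, with 5 and 144 events at an unadjusted p under 0.05. With so few small p-values in the first table the test could call little, and nothing is read from the absence of calls for Slc37a2, whose few skipping counts limit the precision. With another tool and a looser threshold, the study reported its largest number of splicing changes between Stem and AbsPro. The shares of 0% thus describe only the test used here. An event in exon 3 of Hsd3b2 (82 bases in the 5' UTR, chr3:98719660-98719741) had 4.38 counts per library on average in Stem with Ent and was not tested.

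The distal site share is the fraction of a transcript's 3' end that is attributed to the distal polyadenylation site. For Slc37a2 (NM_020258, chr9:37229149-37231656, in the last exon) it was 0.60, 0.36 and 0.47 in Stem and 0.43, 0.35 and 0.58 in AbsPro. In the table of Stem with Ent it was 0.40, 0.54, 0.33, 0.43 and 0.37 in Ent and 0.61, 0.36 and 0.47 in Stem. In that of Stem with EEC it was 0.34 in the 1 EEC library with a value, below 0.66, 0.38 and 0.48 in Stem, and was not tested. The Slc37a2 shares of AbsPro and of Ent overlapped those of Stem. For Hsd3b2 (NM_001359741, chr3:98711107-98712317, in the last exon) it was 0.14, 0.27 and 0.33 in Stem, 0.26, 0.23, 0.20, 0.31 and 0.22 in Ent, and 0.21, 0.89 and 0.17 in AbsPro, where 1 library stood far above the other 2. By limma on the log2 odds of the share, the differences from Stem were -0.14 (SE 0.54, adjusted p = 1) in AbsPro and -0.38 (SE 0.39, adjusted p = 0.742) in Ent for Slc37a2, and 1.25 (SE 1.55, adjusted p = 0.93) and 0.040 (SE 0.37, adjusted p = 0.998) for Hsd3b2. Of all transcripts, 0% of 4484 were called in AbsPro, with 179 at an unadjusted p under 0.05, and 0.0598% of 1672 in Ent. Emp1 is in none of the splicing and polyadenylation tables used here. Both kinds of table share their Stem libraries between comparisons.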

How the data were processed

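RNA of sorted cells was made into libraries with a low-input kit and sequenced as paired reads. The authors aligned reads to mm10 with STAR 2.5.2a and deposited raw counts per gene from HTSeq 0.6.1p1, made without regard to strand, so that reads of overlapping antisense genes cannot be told apart. The authors also deposited inclusion and skipping counts per exon event (rMATS) and distal site shares as a fraction (DaPars), both per library. The other splicing tables hold no member or no values per library and were not used. Columns of fold changes, differences and p-values deposited by the authors were not used either.

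Entries that name no gene were left out. By cell type, reads outside genes made up 43.7% to 77.1% of uniquely mapped reads. TMM factors were taken over all 22 libraries, and the 15 libraries of AbsPro, Ent, Tuft and EEC were fitted with edgeR 4.0.16 (filterByExpr, quasi-likelihood test, cell type as the only term) in R 4.3.3. DESeq2 1.42.0 was an alternative. The distal shares were tested with limma 3.58.1 and a pseudocount of 0.01. Exon events needed 10 counts per library on average. The fits were tested on simulated data. Counts on genes ranged from 4122122 to 22462518 per library. No 2 libraries of a cell type were within sampling noise of each other. Per the study's methods they came from independent mice and sorts, and p-values measure the spread between these libraries. The edgeR fit of genes takes 1 spread per gene over all its cell types, so its standard errors do not show how far apart EEC 1 and EEC 2 lay.

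The genes named are the members, their neighbours in the Stem to SecPDG ranking, the 5 most alike per member, their family genes, both glucose-6-phosphatases, Cyp11a1, Cyp11b1, Hsd11b2 and Nr5a2, and up to 3 genes per list with the largest change among those called. The members, gene lists and motifs were chosen with earlier results of these data known. Alternatives were another tool, scaling, filter, threshold and set of libraries, the replicate number as a block, and each library left out in turn.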

Additional observations from a re-analysis of the deposited data

Results flagged for a closer look

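Emp1 in Tuft 1 measured 132.6 normalized counts, against 46.5 to 71.1 in the other 4 Tuft libraries, and was set apart from them by Dixon's criterion. Of 9 sets of 4 to 10 libraries of 1 gene and cell type examined this way, 1 was set apart, and chance sets apart about 1 in 20. The background from gene families assumed to be unused amounted to 7.94% of the Emp1 counts in Tuft 1, and the Emp1 level there was below all Stem, AbsPro and Ent libraries. Without this library Tuft differed from AbsPro by a log2 value of -6.10 and from Ent by one of -6.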

How the results depend on the processing

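Every call of the 3 genes between the absorptive and the mature secretory cell types (25 alternatives each) and of Tuft against AbsPro and Ent (26 each) kept its direction and its side of the threshold, as did Slc37a2 and Emp1 in EEC against Tuft (25 each). Between the absorptive and the mature secretory cell types the log2 differences ranged from 2.55 to 5.71 for Slc37a2, 2.36 to 5.73 for Emp1 and 1.45 to 3.14 for Hsd3b2.

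The number of genes called in that comparison, 1505 (526 higher and 979 lower), was 3779 with DESeq2, 2263 with its size factors in edgeR, 3281 at an adjusted p under 0.05, and 1076 to 3732 with 1 library left out, the highest without EEC 2. With library totals it was split into 1081 higher and 1171 lower, and with all 22 libraries in 1 fit into 736 and 683. The median log2 difference of genes at the minimum level was 0.023 with TMM, -0.30 with size factors and -0.15 with library totals.

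The numbers called between pairs of cell types moved more. Ent against AbsPro had 1294 higher and 572 lower, 474 and 828 with all 22 libraries in 1 fit, 3346 and 744 with DESeq2, 1670 and 270 with size factors, 1368 and 329 with totals, 2056 and 2151 in a fit of both cell types alone, and 524 (without AbsPro 2) to 3945 genes (without EEC 2) with 1 library left out. EEC against AbsPro had 1903 and 1130, 1058 and 1618 with all 22 libraries, 3329 and 811 with size factors, 24 genes in a fit of both alone, and 1776 (without AbsPro 1) to 6176 (without EEC 2). Tuft against Ent had 687 and 377, 730 and 799 with totals, 784 and 749 with size factors, and 748 to 1838 (without EEC 1). Tuft against AbsPro had 862 and 354, 521 and 418 with all 22 libraries, 2655 and 750 with DESeq2, and 602 (without AbsPro 2) to 2269 (without EEC 2). EEC against Ent had 344 and 172, 416 and 550 with totals, 614 and 335 with size factors, 223 genes with the replicate block, and 356 to 1313 (without EEC 2). EEC against Tuft had 448 and 522, 938 and 626 with size factors, 725 and 847 with totals, 488 genes with the replicate block, and 750 to 2581 (without EEC 2).

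Emp1 in Ent against AbsPro turned to 0.41 with DESeq2, 0.47 with size factors and 0.41 with totals. With totals, EEC against Ent turned to -0.19 for Slc37a2 and -0.25 for Emp1. Hsd3b2 in EEC against Tuft was called by DESeq2 (1.79, adjusted p = 0.00869) and at an adjusted p under 0.05 (1.68). Slc37a2 in Ent against AbsPro was called without both EEC libraries (-1.15), an alternative chosen after seeing the data. The cause of these changes was not tested.

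With 1 library left out, EEC against AbsPro ranged from -4.41 to 0.037 for Slc37a2, -2.80 to 0.97 for Emp1 and -3.95 to -0.55 for Hsd3b2, and EEC against Ent from -3.26 to 1.19, -2.71 to 1.07 and -3.19 to 0.21. Emp1 in EEC against AbsPro was also negative without AbsPro 1 (-0.082) and AbsPro 2 (-0.11). Hsd3b2 in EEC against Tuft ranged from -0.85 to 2.55. Ent against AbsPro ranged from -1.32 to -0.95 for Slc37a2 and -0.28 to 0.31 for Emp1. For Slc37a2 exon 2, the difference from Stem ranged from -0.096 to 1.95 in AbsPro and -1.42 to 1.52 in Ent. The distal share of Slc37a2 in AbsPro ranged from -0.50 to 0.22 (0.17 without another AbsPro library), and that of Hsd3b2 from -0.40 to 2.17 in AbsPro and -0.41 to 0.36 in Ent (-0.080 without 1 Ent library).

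With the replicate number as a block, 1213 genes were called, and these differences changed sign: Emp1 in EEC against AbsPro (-0.20), in EEC against Ent (-0.23) and in Ent against AbsPro (0.033), and Slc37a2 in EEC against Ent (-0.43). No call of a member changed in this replicate block. The correlations gave no sign that the numbers pair the libraries. The 17 same-numbered pairs correlated at -0.451 to 0.369, within the -0.499 to 0.546 of other pairs. Of 15 libraries, 4 correlated best with their own number. These correlations cannot exclude that cell types shared mice, because libraries of a cell type also differed in depth and marker levels. The few skipping counts of Slc37a2 and the 4122122 counts of EEC 1 limit the precision.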
